A study of Homo sapiens with 9 samples.

Results

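RNA of MCF10A, an established human breast epithelial line that does not form tumours, was compared between cultures given transforming growth factor beta 3 (TGFb3, 10 nM for 16 h) and untreated controls. These are 6 of the 9 samples of the series, 3 per group, and the other 3 were given 10 mM calcium with the ionophore ionomycin for 16 h (high calcium). All groups shared a medium with horse serum, EGF, insulin, hydrocortisone and cholera toxin, so the controls were also growing under EGF and the cholera toxin that raises cyclic AMP. The line is a single immortalised culture in which the CDKN2A and CDKN2B locus is known to be deleted. CDKN2B was listed at 0 TPM in every control sample and at most 0.0205 TPM after TGFb3. Entries sharing a gene symbol were summed, and 13968 of 56609 symbols reached a mean of at least 1 TPM over the 9 samples and were tested. Nothing in the labels says whether the 3 replicates of a group were separate cultures. The p-values hence reflect only how far these samples spread, and that spread may be technical.

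TGF-beta ligands are stored outside the cell in latent complexes and bind TGFBR2, a receptor kinase that recruits and activates the second kinase TGFBR1. TGFBR1 phosphorylates SMAD2 and SMAD3, which enter the nucleus with SMAD4 and switch genes on or off together with partner factors such as AP-1. In breast epithelium the pathway is known for arresting proliferation, for matrix deposition, for epithelial-mesenchymal transition (EMT) and, in the case of TGFB3, for its rise when milk is no longer removed from the gland.

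Levels are in TPM, a length-normalised share of a library's transcripts scaled to the same total in each, from which the sequencing depth is not known. A pair joined by ± is the mean and SD of 3 samples (n = 3). Differences are of log2(TPM + 1), TGFb3 minus control, ± the standard error of a limma fit. A gene was called, and is said to have risen or fallen, at a Benjamini-Hochberg adjusted limma p under 0.05 over all tested genes. Correlations of log2 values across genes were between 0.987 and 0.991 within each of these groups and between 0.938 and 0.942 across them. Symbols at 1 TPM or more numbered 13316 to 13525 in controls and 13554 to 13610 after TGFb3, and the mitochondrially encoded share was 21.7 to 23.3% in controls and 22.2 to 23.3% after TGFb3. Of 20 luminal and milk genes 9 were at 1 TPM or more, with a summed level of 1450 to 1527 TPM in controls and 1702 to 1712 TPM after TGFb3, and 7 were at 0 in all samples, among them the milk protein genes CSN2 and LALBA. Of the 9 tested members 3 rose, 3 fell and 3 were not called (median 0.01), and 3 of the 8 at 1 TPM or more in the controls rose. Their differences ran from -1.48 to 2.27, the highest that of CD24, so the higher sum does not describe the list as a whole. The basal keratin KRT5 was at 1252 ± 40.9 TPM in controls and 1168 ± 100.3 TPM after TGFb3. The summed level of 12 basal and myoepithelial markers was 3135 to 3352 TPM in controls and 6610.4 to 7492 TPM after TGFb3.

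TGFb3 moved a large part of the expressed genome. Of all tested genes 8326 (59.6%) were called, 3703 (26.5%) higher and 4623 (33.1%) lower, with a median difference over all genes of -0.06. The rises were fewer but larger. A difference of at least 1 was reached by 865 called rises (6.19%) and 569 called falls (4.07%), and the middle 90% of genes lay between -0.94 and 1.14. Of the 865 large rises, 200 were of genes under 1 TPM in the controls. Counts of list members are set against 26.5% higher and 33.1% lower, a gene on several lists is counted in each, and the rises among members at 1 TPM or more in the controls are given apart where a list holds genes below that, because such genes could pass the expression filter only through a rise in a treated group.

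**Figure D1:**
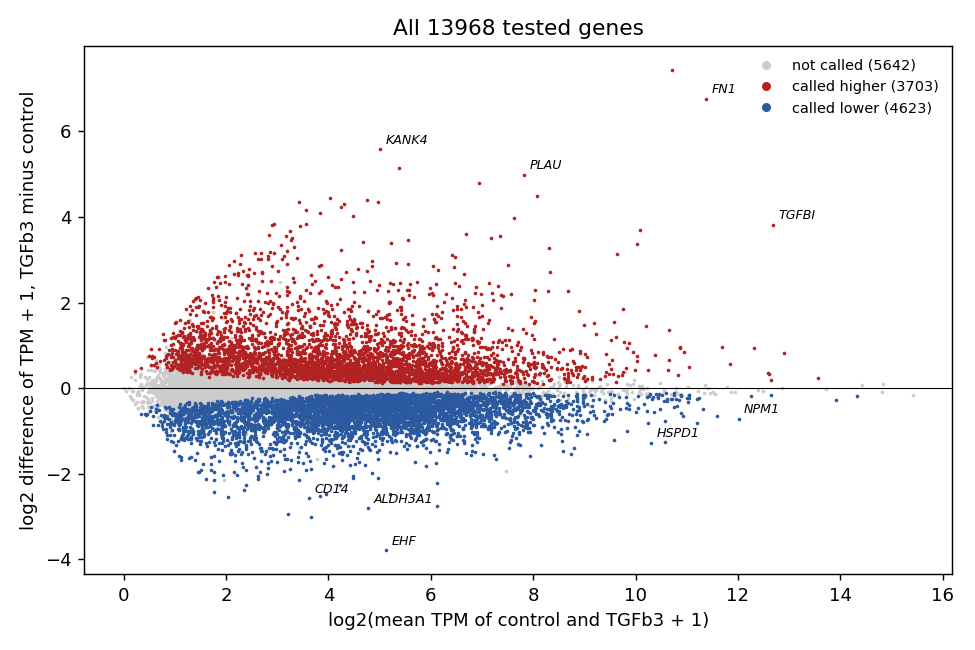
Log2 difference of TPM + 1 (TGFb3 minus control, vertical axis) against log2 mean TPM + 1 of the 6 samples (horizontal axis) for the 13968 tested genes, with called rises in red and called falls in blue. FN1 lies near the top at 6.76, and the lowest is EHF at -3.79.

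Among ligands, activators and latent-complex proteins of the TGF-beta family, 14 of 17 tested members were called higher and 1 lower (median 1.46); all 17 were at 1 TPM or more in the controls, and 7 further listed genes were under the filter. The ligand gene TGFB1 was at 9.54, 11.3 and 11.8 TPM in controls and 32.7, 33.1 and 31.5 TPM after TGFb3, a difference of 1.50 ± 0.08. TGFB2 fell from 4.76 ± 0.454 to 1.88 ± 0.175 TPM. TGFB3 itself, the ligand added as protein, was near the filter at 1.27 ± 0.330 TPM in controls and 0.708 ± 0.110 TPM after treatment, and was not called (-0.40 ± 0.25, limma adjusted p = 0.19). The groups did not overlap for any of these ligand genes, which was also so for 63.8% of all tested genes, and only TGFB1 and TGFB2 passed the test.

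The largest rise in this list was that of LTBP2, a matrix protein of the latent TGF-beta binding family, which was at 6.35, 7.19 and 6.96 TPM in controls and 83.8, 85.2 and 87.6 TPM after TGFb3 (3.47 ± 0.06). FST and FSTL3 encode secreted antagonists that bind activin. FST rose from 8.25 ± 0.895 to 69.5 ± 11.4 TPM (2.92 ± 0.12) and FSTL3 from 28.9 ± 2.65 to 156 ± 14.9 TPM (2.40 ± 0.08). INHBA, which encodes the activin A subunit, rose with its antagonists, from 8.64 ± 0.469 to 32.7 ± 1.36 TPM (1.81 ± 0.06).

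Receptor genes were divided. Of 13 tested family receptors 5 rose, 2 fell and 6 were not called, with a median of 0.14 (0.07 without TGFb3 replicate 3). TGFBR1, the kinase that phosphorylates SMAD2 and SMAD3, was at 26.7, 26.1 and 26.5 TPM in controls and 136, 155 and 156 TPM after TGFb3, 5.65 times the control mean (2.45 ± 0.06). TGFBR2, the ligand-binding kinase, was at 158, 160.1 and 157 TPM against 193, 193 and 183 TPM, a rise of 0.26 ± 0.03. TGFBR3 (betaglycan), a co-receptor without a kinase domain, went the other way, from 6.83, 7.06 and 6.79 TPM to 0.987, 1.08 and 1.53 TPM (-1.85 ± 0.18). Both kinases were higher and the co-receptor was lower in every TGFb3 sample than in any control. BMPR2 and ACVR1, receptors for bone morphogenetic proteins, rose by 1.59 and 1.06.

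Of 7 tested SMAD genes 2 rose, 2 fell and 3 were not called (median -0.10, from -0.23 without control replicate 1 to -0.01 without control replicate 3). SMAD2 was at 15.2 ± 2.48 TPM in controls and 14.1 ± 2.22 TPM after TGFb3 and SMAD4 at 27.1 ± 2.48 and 28.5 ± 1.42 TPM, neither of them called. SMAD3 rose by 0.30 ± 0.06. SMAD1 and SMAD5, which carry bone morphogenetic protein signals, fell, by 0.70 and 0.23 on the log2 scale.

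Feedback inhibitors of the pathway rose in 7 of 10 tested cases and fell in 2, with a median of 0.72 and no member under 1 TPM in the controls. SMAD7, the inhibitory SMAD that blocks TGFBR1, was at 3.64, 4.04 and 3.69 TPM in controls and 16.7, 17.0 and 15.3 TPM after TGFb3 (1.85 ± 0.09). SKIL (SnoN), a nuclear corepressor of SMAD complexes, was at 22.3, 16.7 and 22.8 TPM and 105, 117 and 124 TPM (2.44 ± 0.11). PMEPA1, a membrane protein that sequesters SMAD2 and SMAD3, was at 23.2, 21.1 and 22.4 TPM and 487, 524 and 539.5 TPM (4.48 ± 0.06). Each of these genes was several times higher in every TGFb3 sample than in any control. PMEPA1 overlaps the antisense gene NKILA, which also rose (3.46 ± 0.15), and because the strand setting of the counting is not given, their reads cannot be told apart. SMURF1, a ubiquitin ligase that SMAD7 brings to the receptor, rose by 1.25 ± 0.08, and BAMBI, a decoy receptor, was not called (0.15 ± 0.10).

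The ID genes encode inhibitors of basic helix-loop-helix factors and are textbook readouts of bone morphogenetic protein signalling. ID1 was at 392, 390.2 and 375 TPM in controls and 303, 276 and 294 TPM after TGFb3, a fall of 0.41 on the log2 scale. ID3 rose from 49.3, 48.6 and 55.9 TPM to 103, 91.6 and 94.6 TPM (0.90 ± 0.07), and ID2 fell by 0.38, a call lost under 4 of the 18 alternatives. ID1 and ID3 thus moved in opposite directions, and the groups overlapped for neither.

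All 27 tested members of a list of canonical SMAD3 target genes rose, each by at least 1, with a median of 2.96 (2.08 with a pseudocount of 5 TPM and 3.56 with 0.1 TPM) against -0.06 over all genes; 2 listed genes were under the filter. Of the 27, 6 were under 1 TPM in the controls, and the other 21 of 21 rose. The list was put together with earlier results of these data known, so its count is a description. FN1 (fibronectin), an adhesive protein of the matrix, was at 45.0, 46.1 and 52.0 TPM in controls and 5341, 5586 and 4902 TPM after TGFb3, 111 times the control mean (6.76 ± 0.06, limma adjusted p = 2.0e-12). TGFBI, an adhesive matrix protein named for its induction by TGF-beta, was already at 861, 909.9 and 826 TPM in controls and reached 12647, 11956 and 12155 TPM (3.82 ± 0.05). In TPM it was the largest rise of any nuclear gene, ahead of FN1.

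**Figure D2:**
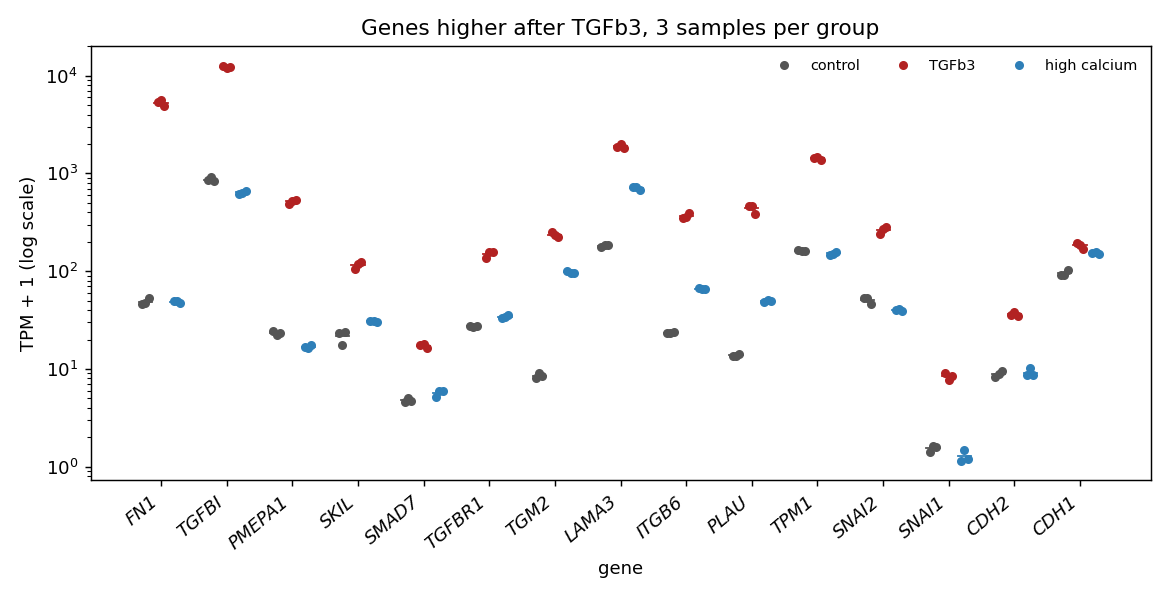
TPM + 1 on a log axis for 15 genes that rose, with 1 point per sample and a bar at the group mean, for control (grey), TGFb3 (red) and high calcium (blue). The 3 TGFb3 samples of each gene lie above its 3 controls, with TGFBI the highest at 12253 ± 355 TPM and SNAI1 the lowest at 7.43 ± 0.663 TPM.

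The 15 largest rises among genes of at least 10 TPM held further genes of matrix and adhesion. KANK4, an adaptor of the cell cortex, was at 0.381, 0.241 and 0.325 TPM in controls and 64.4, 63.2 and 59.2 TPM after TGFb3 (5.59 ± 0.10). KCNJ15, an inwardly rectifying potassium channel, was at 1.05, 1.52 and 1.27 TPM and 67.7, 87.6 and 84.3 TPM (5.14 ± 0.18). TGM2, a transglutaminase that crosslinks matrix proteins, was at 7.02, 8.12 and 7.45 TPM and 251, 232 and 224 TPM (4.79 ± 0.06). These genes were low or nearly silent in controls and reached at least 59.2 TPM in every treated sample. NEDD9, a scaffold of focal adhesions, rose by 4.45 ± 0.10, and others among them were SCG5, ADAM19, SPRR2G, TNC, ALOX5AP, ENKUR and AMTN, with differences from 4.10 to 4.40. SPRR2G was listed at 0 TPM in every control and at 24.4, 18.6 and 15.6 TPM after TGFb3.

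Promoter sequences from RefSeq (GRCh38.p14) were available for 13 of the 15 largest rises and for 9511 of the tested genes. Windows of 250 bases before a start site are printed for FN1, KCNJ15 and PLAU (second listed start), which are among the 15 largest rises, and for SMAD7 (first listed start), a feedback gene with a smaller rise. KCNJ15, PLAU and SMAD7 were picked after the motifs in their windows and their values were seen, to show what a window with motifs looks like. They are written 5′ to 3′ on the gene's strand and lie at chr2:215436069-215436318 (minus strand), chr21:38272258-38272507 (plus), chr10:73910882-73911131 (plus) and chr18:48950966-48951215 (minus). Capitals mark the motifs searched on both strands: CAGAC, a SMAD-binding element, TGANTCA, the AP-1 element, and CACCTG, the E-box bound by SNAI and ZEB factors.
FN1: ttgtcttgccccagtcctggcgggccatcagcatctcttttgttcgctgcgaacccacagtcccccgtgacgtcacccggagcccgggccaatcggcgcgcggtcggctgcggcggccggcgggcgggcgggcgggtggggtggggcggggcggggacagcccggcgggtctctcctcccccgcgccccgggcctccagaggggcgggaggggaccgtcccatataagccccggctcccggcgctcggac
KCNJ15: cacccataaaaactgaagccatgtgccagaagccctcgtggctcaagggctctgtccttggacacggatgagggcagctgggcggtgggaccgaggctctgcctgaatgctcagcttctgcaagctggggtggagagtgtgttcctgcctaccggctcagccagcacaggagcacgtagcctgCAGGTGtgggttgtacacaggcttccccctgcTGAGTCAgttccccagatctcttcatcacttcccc
PLAU: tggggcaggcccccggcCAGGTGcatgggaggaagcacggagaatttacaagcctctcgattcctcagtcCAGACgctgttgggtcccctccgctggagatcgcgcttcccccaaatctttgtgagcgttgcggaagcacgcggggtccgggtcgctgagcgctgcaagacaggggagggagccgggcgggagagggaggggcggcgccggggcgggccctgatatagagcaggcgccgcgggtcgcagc
SMAD7: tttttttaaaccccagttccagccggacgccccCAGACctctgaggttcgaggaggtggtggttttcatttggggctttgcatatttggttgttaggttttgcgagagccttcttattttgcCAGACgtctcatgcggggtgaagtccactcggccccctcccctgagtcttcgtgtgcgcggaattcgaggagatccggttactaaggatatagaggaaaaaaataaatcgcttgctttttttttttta
The SMAD7 window held CAGAC at 217 and 128 bases before the start, the PLAU window CAGAC at 180 and CACCTG (as its complement) at 233, and the KCNJ15 window an AP-1 element at 35 and CACCTG (as its complement) at 67. None of these letters were in the FN1 window, nor in those of KANK4 and of the first listed PLAU start, which are not printed. Over first-listed windows, CAGAC was in 35.6% of all 9511 genes, 40.7% of 568 called rises of at least 1 and 33.6% of 384 called falls of that size. TGANTCA was in 4.03%, 8.80% and 4.17% of the same sets, and CACCTG in 15.7%, 18.7% and 18.8%. These shares describe letters in a window, not sites that a factor occupies, and were not tested.

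Most matrix genes rose. Of 23 tested matrix glycoproteins and matricellular proteins 18 rose, 3 fell and 2 were not called (median 1.92; 11 listed genes under the filter), and among the 17 that were at 1 TPM or more in the controls 13 rose. TNC (tenascin C), a matrix protein of wounds and tumour stroma, was at 0.778, 0.761 and 1.12 TPM in controls and 42.2, 38.4 and 28.9 TPM after TGFb3 (4.30 ± 0.14). CTGF, a matricellular protein that both SMAD3 and YAP induce, rose from 5.63 ± 0.774 to 50.4 ± 1.39 TPM (2.96 ± 0.09).

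Of 14 tested collagens 13 rose (median 1.53, 0.86 with a pseudocount of 5 TPM and 2.46 with a filter at 5 TPM; 13 further collagens were under the filter), and all 9 that were at 1 TPM or more in the controls were among them. COL4A1, a basement membrane chain, was at 23.8, 25.1 and 25.7 TPM and 293, 311 and 300.2 TPM (3.55 ± 0.05), and COL7A1, the anchoring fibril collagen, rose from 2.65 ± 0.502 to 33.2 ± 0.343 TPM. COL1A1, the fibrillar collagen chain, was at 0.836, 0.731 and 0.834 TPM in controls and 17.0, 13.6 and 16.1 TPM after TGFb3 (3.20 ± 0.20). Its partner chain COL1A2 was at 0 TPM in all 9 samples. Enzymes that hydroxylate and crosslink collagen rose in 8 of 13 cases (7 of the 12 at 1 TPM or more in the controls), among them P4HA2 (1.50), LOXL2 (1.42) and PLOD2 (1.07).

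Laminin chains of the basement membrane beneath breast and skin epithelium rose. LAMA3 was at 175, 187 and 182 TPM in controls and 1872, 1987 and 1835 TPM after TGFb3 (3.38 ± 0.04), and LAMB3 at 52.8, 58.6 and 63.2 TPM and 597, 581 and 534 TPM (3.27 ± 0.07). In mean TPM the rises were 10.5-fold for LAMA3 and 9.81-fold for LAMB3. Over the list of laminins 6 of 8 tested genes rose and 0 fell, with a median of 0.67 (5 of the 7 at 1 TPM or more in the controls).

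Integrins, the receptors for these matrix proteins, rose in 11 of 15 cases and fell in 2 (median 1.07), with 10 rises among the 13 at 1 TPM or more in the controls. ITGB6 pairs with ITGAV to form the integrin that releases TGF-beta from its latent complex. ITGB6 was at 22.1, 22.1 and 23.0 TPM in controls and 350.0, 359 and 394 TPM after TGFb3 (3.98 ± 0.05), and ITGAV at 48.3, 51.8 and 51.3 TPM and 235, 250.2 and 236 TPM (2.23 ± 0.04). ITGA5, the fibronectin receptor chain, rose from 19.8 ± 1.24 to 105 ± 5.49 TPM. ITGB3 was listed at 0 TPM in every control and at 7.04, 7.72 and 5.87 TPM after TGFb3.

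Proteases of the cell surface and matrix rose in 14 of 19 cases and fell in 2 (median 0.69, but 0.33 with a pseudocount or a filter of 5 TPM and 1.00 with a pseudocount of 0.1 TPM); 10 of the 15 at 1 TPM or more in the controls rose. PLAU (urokinase), which activates plasminogen, was at 12.5, 12.7 and 13.1 TPM in controls and 468, 459.7 and 386 TPM after TGFb3 (4.99 ± 0.07), and its receptor PLAUR rose from 36.9 ± 0.801 to 145 ± 27.1 TPM. The groups overlapped for neither gene. MMP9, a gelatinase, was listed at 0 TPM in every control and at 8.70, 8.66 and 6.05 TPM after TGFb3. ADAM19, a membrane metalloprotease, rose from 1.93 ± 0.0495 to 59.1 ± 2.41 TPM, and TIMP1, an inhibitor of metalloproteases, from 211 ± 14.3 to 467 ± 26.6 TPM.

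Genes of the actin cytoskeleton rose almost as a block: 34 of 38 tested members were called higher, 1 lower and 3 not, with a median of 0.93, and 33 of the 37 at 1 TPM or more in the controls rose. TPM1 (tropomyosin 1), which stabilises actin filaments, was at 163, 161 and 161 TPM in controls and 1450.4, 1489 and 1375 TPM after TGFb3 (3.15 ± 0.04). ACTB (beta-actin) was at 3236, 3468 and 3729 TPM and 6524, 6945 and 6583 TPM (0.94 ± 0.06), so this gene, often used as a constant reference, was higher in every treated sample. MYL9, a myosin regulatory light chain, rose from 11.2 ± 1.18 to 58.4 ± 10.6 TPM and PDLIM7 from 21.7 ± 3.72 to 102 ± 3.49 TPM. ACTA2, the smooth muscle actin by which myofibroblasts are recognised, was at 8.55, 8.15 and 8.64 TPM in controls and 7.72, 8.81 and 9.30 TPM after TGFb3, and was not called (0.02 ± 0.12, turning to -0.0052 under quantile normalisation, to -0.00096 without control replicate 2 and to -0.03 without TGFb3 replicate 3); it was singled out after its values were seen.

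Mesenchymal markers rose in 14 of 16 tested cases and fell in 0 (median 1.78, 1.16 with a pseudocount of 5 TPM; 9 listed genes under the filter), and 11 of the 13 at 1 TPM or more in the controls rose. VIM (vimentin), an intermediate filament of mesenchymal cells, was at 384, 424 and 369 TPM in controls and 1032, 1169.8 and 1228 TPM after TGFb3 (1.54 ± 0.07). CDH2 (N-cadherin) was at 7.37, 7.97 and 8.48 TPM and 34.5, 37.6 and 33.6 TPM (2.02 ± 0.09). FAP, a surface protease of activated fibroblasts, was at 42.0, 47.1 and 39.8 TPM and 315, 322 and 321 TPM (2.87 ± 0.06). Some of these genes also mark fibroblasts, and the summed level of 9 fibroblast markers was 42.3 to 49.9 TPM in controls and 333 to 341 TPM after TGFb3, most of it FAP in both groups. Of the other markers DCN was at 13.9 ± 1.52 TPM after TGFb3 and POSTN at 3.24 ± 0.557 TPM, whereas the fibroblast-defining COL1A2 and THY1 were at 0 in all 9 samples, LUM and COL3A1 at 0 in these 6, and PDGFRA and PDGFRB did not pass 0.562 TPM in any of them. In bulk RNA, fewer cells of a type and less RNA per cell cannot be told apart, and the part of other cells in these rises was not tested.

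The transcription factors that drive EMT rose in part. Of 21 tested members 13 rose, 4 fell and 4 were not called (median 0.78), with 10 rises among the 17 at 1 TPM or more in the controls. SNAI2 (Slug), a repressor already present in controls at 52.2, 52.4 and 45.7 TPM, reached 239, 270.1 and 285 TPM (2.38 ± 0.07). SNAI1 (Snail) was at 0.417, 0.641 and 0.603 TPM in controls and 8.01, 6.71 and 7.58 TPM after TGFb3 (2.44 ± 0.15). ZEB1 and ZEB2, repressors of E-cadherin, stayed low: ZEB1 rose from 0.586 ± 0.0519 to 2.32 ± 0.471 TPM and ZEB2 from 0.609 ± 0.0899 to 1.64 ± 0.126 TPM. TWIST1, another EMT factor, fell, from 17.3, 15.6 and 13.8 TPM to 9.02, 11.6 and 10.7 TPM (-0.54 ± 0.12). SOX4 and BHLHE40 rose by 2.29 ± 0.06 and 2.35 ± 0.07.

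Epithelial junction genes did not fall together. CDH1 (E-cadherin), whose loss defines a complete EMT, was at 90.8, 89.8 and 102 TPM in controls and 191, 186 and 169 TPM after TGFb3, a rise of 0.94 ± 0.06. CDH1 and CDH2 were thus both higher in every treated sample. Of 27 tested adherens and tight junction genes 16 rose, 4 fell and 7 were not called (median 0.32, 0.21 without control replicate 1), and of 17 desmosome and hemidesmosome genes 12 rose and 3 fell (median 0.42). CLDN4, a tight junction claudin, rose from 4.88 ± 0.993 to 29.5 ± 5.54 TPM, and ITGB4 and COL17A1, hemidesmosome components, rose by 2.20 ± 0.08 and 1.45 ± 0.06. EPCAM, an adhesion protein of simple epithelia, fell from 300.2, 306 and 277 TPM to 113, 118 and 124 TPM (-1.31 ± 0.05).

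Epithelial transcription and splicing factors as a list stayed near the shares of all tested genes, with single members moving in both directions. Of 17 tested, 4 were higher (23.5% against 26.5%), 6 lower (35.3% against 33.1%) and 7 not called. The median was -0.07 (from -0.13 without TGFb3 replicate 1 to -0.01 without control replicate 1), and 3 of the 15 at 1 TPM or more in the controls were higher. EHF, an ETS factor of glandular epithelium, had the largest fall of any tested gene, from 68.8, 62.5 and 60.9 TPM in controls to 3.96, 2.94 and 4.29 TPM after TGFb3 (-3.79 ± 0.11). TFAP2C, a luminal AP-2 factor, fell from 29.3 ± 1.71 to 12.4 ± 1.40 TPM. OVOL1 and KLF4, which hold cells in an epithelial state, rose by 1.75 ± 0.15 and 1.61 ± 0.09. ESRP1, an epithelial splicing regulator, was at 1.04, 0.532 and 0.425 TPM in controls and 0.649, 1.08 and 0.498 TPM after TGFb3 and was not called (0.07 ± 0.19; -0.03 without control replicate 3 and -0.07 without TGFb3 replicate 2), while ESRP2 fell from 35.1 ± 4.72 to 21.6 ± 1.13 TPM (-0.67 ± 0.09).

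Keratins rose in 8 of 16 cases and fell in 3 (5 without TGFb3 replicate 1). The basal keratin KRT5 was not called (-0.10 ± 0.06, limma adjusted p = 0.15), except without TGFb3 replicate 1 (-0.17, limma adjusted p = 0.015). KRT6B, a keratin of activated and wounded epidermis, rose from 4.28 ± 0.472 to 34.5 ± 8.75 TPM, and KRT15, a keratin of quiescent basal cells, was at 41.2, 27.3 and 37.5 TPM in controls and 8.61, 7.20 and 6.25 TPM after TGFb3 (-2.11 ± 0.15). IVL (involucrin), a protein of the cornified envelope, rose from 0.455 ± 0.289 to 12.0 ± 0.938 TPM, whereas S100A8, a calcium-binding alarmin of stressed epithelium, fell from 235 ± 32.6 to 74.6 ± 14.8 TPM. CD24, a surface marker that is low in mesenchymal-like breast cells, rose from 141 ± 17.6 to 679 ± 28.1 TPM (2.27 ± 0.09).

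**Figure D3:**
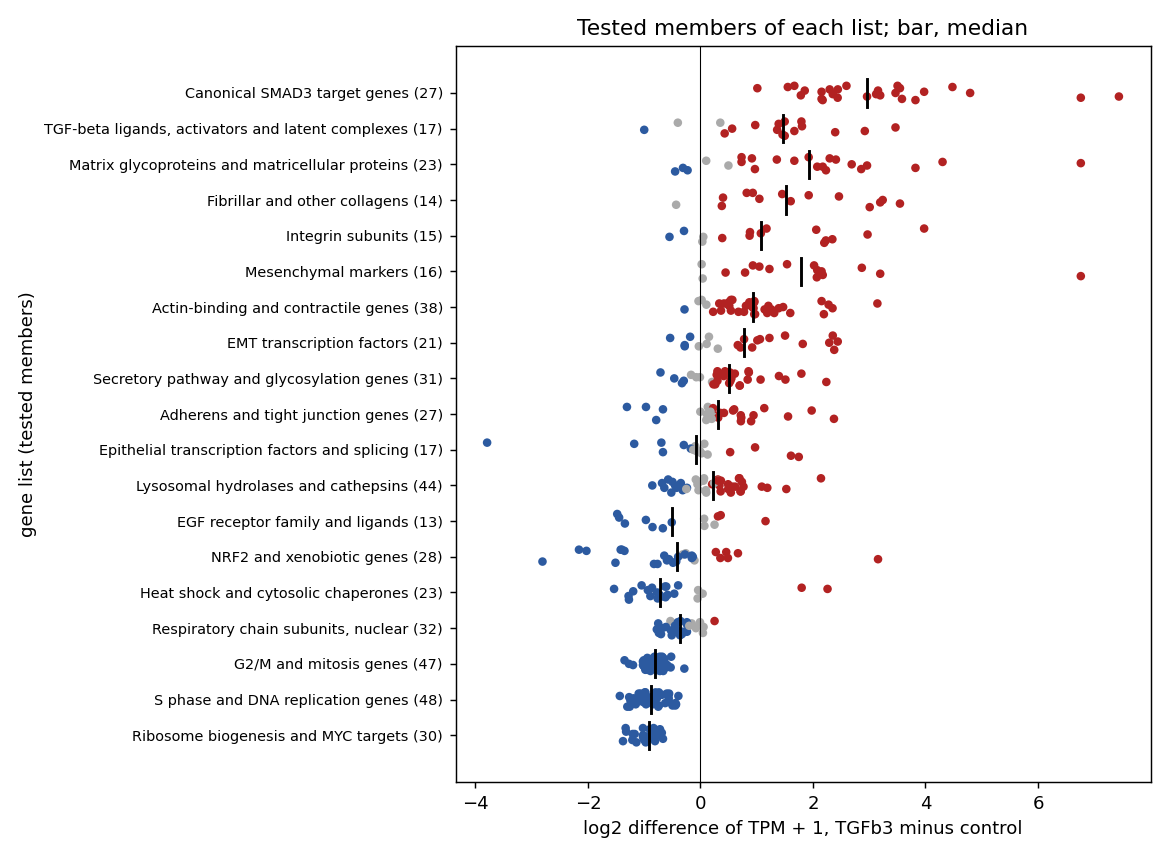
Log2 difference of TPM + 1 (TGFb3 minus control) for each tested member of 19 gene lists, with rises in red, falls in blue, genes not called in grey and a black bar at the list's median. SMAD3 targets lie at 1 or more, cell cycle and ribosome biogenesis genes lie below 0, and junction, EMT and lysosomal lists spread to both sides.

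Genes of DNA replication and mitosis fell. All 48 S phase and DNA replication genes fell (median -0.88) and all 47 G2/M and mitosis genes fell (median -0.81), against 33.1% of all tested genes, and every one of them was at 1 TPM or more in the controls. MKI67, the marker of cycling cells, was at 168, 161 and 171 TPM in controls and 89.3, 92.8 and 93.8 TPM after TGFb3 (-0.85 ± 0.04). MCM2, a subunit of the replicative helicase, was at 36.8, 39.9 and 41.1 TPM and 14.8, 13.4 and 13.6 TPM (-1.43 ± 0.07), and MAD2L1, of the spindle checkpoint, fell by 1.35 on the log2 scale. The groups did not overlap for any of the 48 and 47 genes, against 63.8% of all tested genes without overlap.

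The few tested replication-dependent histone genes, whose proteins package newly made DNA, did not fall with them. Of 7 tested, 4 rose, 1 fell and 2 were not called, with a median of 0.58 that was 0.28 with a pseudocount of 5 TPM. As 7 of the 14 listed genes were under the filter, these counts do not describe the histone genes as a whole. Whether these RNAs follow the supply of histones was not tested. The single fall, of HIST2H2AC from 5.06 ± 1.13 to 2.32 ± 1.23 TPM, was not called under 9 of the 18 alternatives, and the largest rise was that of HIST1H2BD from 2.82 ± 0.528 to 8.39 ± 1.26 TPM.

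The regulators of G1 were mixed, with 5 of 23 higher, 10 lower and 8 not called. CDKN1A (p21), the cyclin-dependent kinase inhibitor induced by TGF-beta, was at 32.6, 31.8 and 35.9 TPM in controls and 108, 101 and 90.5 TPM after TGFb3 (1.55 ± 0.07). MYC, the transcription factor of cell growth that TGF-beta is known to repress, was at 213, 216 and 220.5 TPM and 146, 142 and 151 TPM, a called fall to 0.675 of the control mean (-0.56 ± 0.04). CDC25A, the phosphatase that opens the way to S phase, fell by 1.15, and the E2F factors E2F2 and E2F5 by 1.35 and 1.49.

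**Figure D4:**
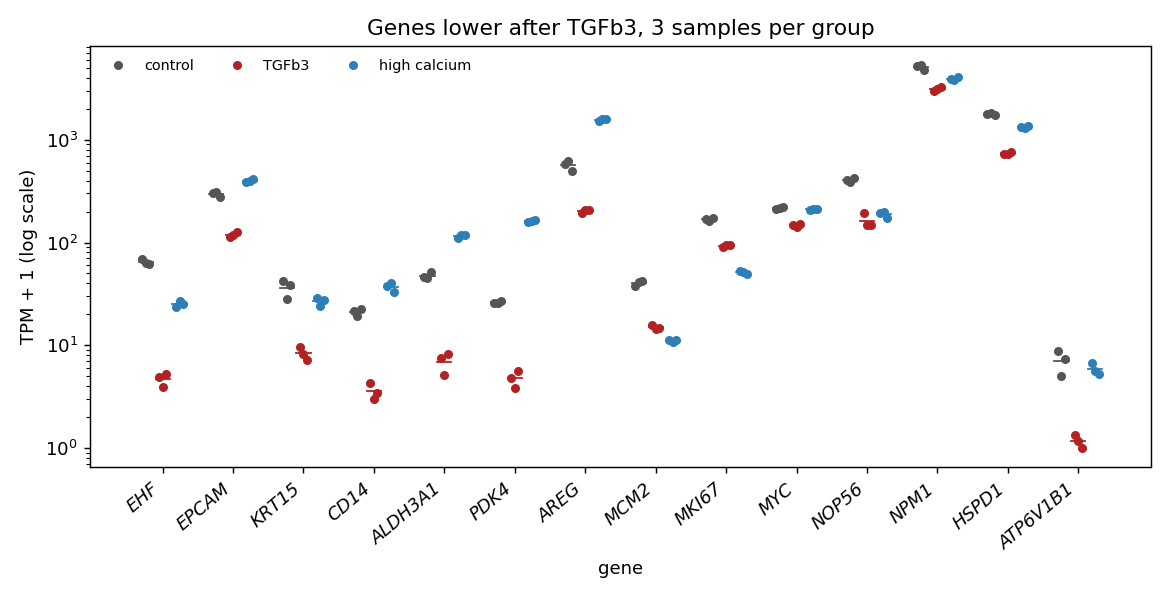
TPM + 1 on a log axis for 14 genes that fell, with 1 point per sample and a bar at the group mean, for control (grey), TGFb3 (red) and high calcium (blue). The TGFb3 samples of each gene lie below its controls. EHF is at 64.1 ± 4.17 TPM in controls and 3.73 ± 0.705 TPM after TGFb3, and NPM1 at 5139.6 ± 277 and 3121 ± 127 TPM.

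The biosynthetic machinery fell as well. All 30 tested ribosome biogenesis and MYC target genes fell (median -0.92). NOP56, a core protein of the small nucleolar particles that methylate ribosomal RNA, was at 400.5, 391 and 425 TPM in controls and 193, 147 and 147 TPM after TGFb3 (-1.33 ± 0.10). NCL (nucleolin) fell from 1065 ± 22.6 to 459.8 ± 9.70 TPM, and NPM1 (nucleophosmin) was at 5268, 5329 and 4822 TPM and 2999, 3112 and 3253 TPM, the largest fall in TPM of any nuclear gene. Cytosolic ribosomal proteins moved far less: 0 rose, 17 of 32 fell and 15 were not called, with a median of -0.15. That count ranged from 7 with median ratio scaling to 18 over the alternatives, and was 10 without control replicate 2 and without TGFb3 replicate 2.

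Nuclear-encoded respiratory chain genes and heat shock and chaperone genes fell in most cases. Of 32 nuclear-encoded respiratory chain subunits 24 fell and 1 rose (median -0.36), among them SDHD from 188 ± 0.812 to 109.8 ± 7.85 TPM. Of 23 heat shock and chaperone genes, a list that holds mitochondrial as well as cytosolic chaperones, 18 fell and 2 rose (median -0.72). HSPD1, the mitochondrial chaperonin, was at 1799.8, 1827 and 1722 TPM in controls and 719, 724 and 762 TPM after TGFb3 (-1.28 ± 0.04), and its co-chaperonin HSPE1 at 662, 677 and 575 TPM and 218, 224 and 215 TPM (-1.53 ± 0.06). HSP90AA1, the inducible cytosolic HSP90, fell from 2169.6 ± 103 to 898 ± 10.2 TPM. The exceptions were the small heat shock proteins HSPB1, from 205, 194 and 235 TPM to 837, 723 and 660.0 TPM (1.80 ± 0.09), and CRYAB, from 1.15 ± 0.352 to 9.34 ± 1.97 TPM.

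Transcription factors of the AP-1 and immediate early class rose in 14 of 18 cases and fell in 2 (median 0.68), and 13 of the 17 at 1 TPM or more in the controls rose. JUN was at 5.98, 5.90 and 6.36 TPM in controls and 47.1, 46.3 and 44.4 TPM after TGFb3 (2.73 ± 0.05), JUNB rose from 22.9 ± 1.17 to 107 ± 7.72 TPM, and KLF10, an early gene named for its induction by TGF-beta, rose by 1.34 ± 0.07. YAP and TEAD targets rose in 14 of 24 cases and fell in 5 (median 0.52; 13 of the 23 at 1 TPM or more in the controls rose), led by CTGF, IGFBP3 and CYR61. CYR61, a matricellular protein, rose from 15.2 ± 1.40 to 78.7 ± 4.83 TPM.

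The EGF family ligands AREG, EPGN and EREG fell. AREG (amphiregulin) was at 578, 623 and 491 TPM in controls and 192, 206 and 205 TPM after TGFb3 (-1.48 ± 0.08). EPGN (epigen) was at 292, 303 and 318 TPM and 121, 122 and 116 TPM (-1.34 ± 0.04), EREG (epiregulin) fell from 40.1 ± 1.66 to 14.1 ± 1.38 TPM, and TGFA rose from 33.0 ± 3.37 to 74.6 ± 3.69 TPM. Over the list of receptors and ligands 3 of 13 genes rose and 7 fell, with a median of -0.51 that turned to 0.07 when only genes with a mean of at least 5 TPM were kept. Among feedback inhibitors of the MAP kinase pathway, SPRY1 fell from 7.71 ± 0.773 to 0.808 ± 0.170 TPM and DUSP5 from 27.7 ± 1.38 to 9.22 ± 1.33 TPM, while DUSP10, a phosphatase for the stress kinases, rose from 3.02 ± 0.345 to 20.7 ± 1.94 TPM.

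Of 26 tested chemokines, cytokines and interleukin 1 family members 15 rose and 6 fell (median 0.47), and 12 of the 21 at 1 TPM or more in the controls rose. IL11, a cytokine of the interleukin 6 family and a known TGF-beta target, was at 0.169, 0.145 and 0 TPM in controls and 11.8, 12.7 and 12.2 TPM after TGFb3 (3.58 ± 0.14). CXCL8, a neutrophil chemokine, rose from 38.5 ± 3.00 to 141 ± 14.2 TPM and IL1B from 107 ± 1.90 to 276 ± 20.8 TPM. Of the growth factors, PDGFB rose from 0.315 ± 0.0928 to 7.75 ± 0.378 TPM and VEGFA from 34.9 ± 2.11 to 111 ± 5.08 TPM. SEMA7A, a membrane semaphorin that binds integrins, rose from 0.463 ± 0.0643 to 19.4 ± 2.95 TPM (3.79 ± 0.13), and the WNT ligand WNT9A from 1.28 ± 0.405 to 17.6 ± 1.67 TPM. Interferon-stimulated genes stayed near the background, with 7 of 24 higher and 8 lower (median 0.02; 6 of the 22 at 1 TPM or more in the controls higher), but with a filter at 5 TPM 3 were higher and 7 lower (median -0.38).

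Most genes of the secretory pathway rose. Of 31 secretory and glycosylation genes 23 rose and 4 fell (median 0.51), and of 26 genes of endoplasmic reticulum chaperones and the unfolded protein response 20 rose and 0 fell (median 0.43). KDELR3, a receptor that returns chaperones to the endoplasmic reticulum, rose from 6.92 ± 1.03 to 36.3 ± 3.66 TPM (2.24 ± 0.11), and SEC24D, a coat protein of the vesicles that carry procollagen, from 12.1 ± 0.189 to 36.3 ± 2.57 TPM (1.51 ± 0.06). CALR (calreticulin) rose by 0.79 ± 0.04. Cholesterol and fatty acid synthesis genes rose in 19 of 29 cases by smaller steps (median 0.36), with STARD4, a sterol transporter, the largest at 1.00.

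**Figure D5:**
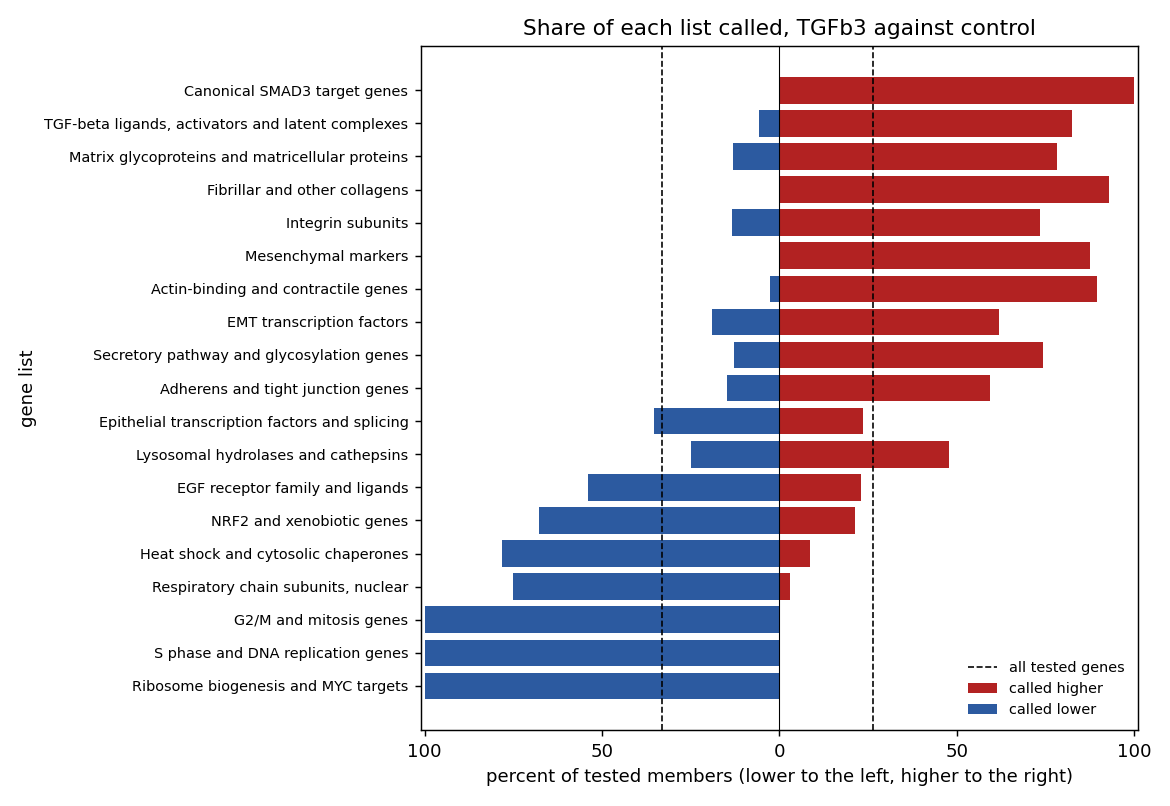
Percent of tested members of 19 gene lists called higher (red, to the right) or lower (blue, to the left) after TGFb3, with dashed lines at the 26.5% higher and 33.1% lower of all tested genes. SMAD3 targets are all higher, and the cell cycle and ribosome biogenesis lists are all lower.

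Lysosomal genes, to which the title of the study draws attention, moved in both directions, with more rises and fewer falls than among all tested genes. Hydrolases and cathepsins were 47.7% higher and 25.0% lower, and lysosomal membrane genes 36.4% higher and 24.2% lower, against 26.5% and 33.1%. Of 44 hydrolases and cathepsins 21 rose, 11 fell and 12 were not called (median 0.23, 0.10 with a filter at 5 TPM), and 20 of the 42 at 1 TPM or more in the controls rose. CTSB, a cysteine cathepsin linked to cell death in the involuting gland, was at 140.4, 135 and 121 TPM in controls and 389, 379 and 376 TPM after TGFb3 (1.53 ± 0.07). CTSD, the aspartic cathepsin, was at 88.0, 94.9 and 116 TPM and 93.7, 74.3 and 71.6 TPM; its fall (-0.32 ± 0.12, limma adjusted p = 0.037) was not called under 10 of the 18 alternatives. CTSL was at 127 ± 3.47 TPM and 147 ± 13.7 TPM, a rise of 0.21 ± 0.07 that was not called under 4 of them. CTSV, a cathepsin of epithelia, rose from 3.03 ± 0.647 to 16.8 ± 3.02 TPM.

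In the lysosomal membrane, 12 of 33 genes rose and 8 fell (median 0.15, 0.08 without TGFb3 replicate 1). LAMP1 rose by 0.16 ± 0.04. ATP6V1B1, a tissue-restricted subunit of the proton pump, was at 7.76, 3.97 and 6.39 TPM in controls and 0.350, 0.179 and 0 TPM after TGFb3 (-2.55 ± 0.21). TFEB, the master factor of lysosome genes, rose from 3.13 ± 0.0752 to 5.21 ± 0.300 TPM (0.59 ± 0.10). Autophagy genes rose in 17 of 34 cases and fell in 2 (median 0.25), among them ULK1 (1.53) and WIPI1 (1.50), which act at the start of autophagosome formation.

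Of 28 NRF2 and xenobiotic genes 19 fell and 6 rose (median -0.41), and 5 of the 25 at 1 TPM or more in the controls rose. Of 27 glycolysis and hypoxia-response genes 15 fell and 7 rose (median -0.25), and 7 of the 26 at 1 TPM or more in the controls rose. ALDH3A1, an aldehyde dehydrogenase of barrier epithelia, was at 44.7, 44.3 and 50.7 TPM in controls and 6.45, 4.13 and 7.18 TPM after TGFb3 (-2.81 ± 0.15). PDK4, a kinase that holds pyruvate from the mitochondrion, was at 25.0, 24.6 and 26.1 TPM and 3.85, 2.82 and 4.61 TPM (-2.48 ± 0.11), and HK2 (hexokinase 2) fell from 34.7 ± 1.94 to 9.38 ± 0.325 TPM. HMOX1 (heme oxygenase 1), usually grouped with the NRF2 targets, rose instead, from 1.25, 0.201 and 0.315 TPM to 14.1, 12.5 and 11.3 TPM (3.16 ± 0.21).

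Genes of calcium handling, with the annexins and S100 proteins, rose in 24 of 33 cases and fell in 3 (median 0.46), and 23 of the 32 at 1 TPM or more in the controls rose. S100A2, a basal epithelial S100 protein, was at 2042, 2301 and 2419 TPM in controls and 4854, 4129.6 and 4098 TPM after TGFb3 (0.95 ± 0.08), and S100A10, the partner of annexin A2 at the membrane, rose from 897 ± 25.6 to 2311 ± 90.3 TPM. Both belong to the more abundant messages of these cells and were higher in every treated sample.

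Stress and cell death genes were divided. Of 26 ATF4 targets and amino acid supply genes 14 fell and 7 rose (median -0.20). GDF15, a secreted stress-response member of the TGF-beta superfamily, was at 9.94, 9.63 and 8.35 TPM in controls and 2.86, 2.80 and 3.06 TPM after TGFb3 (-1.40 ± 0.07), and DDIT4, an inhibitor of mTORC1 signalling, fell from 503 ± 18.7 to 240.2 ± 13.4 TPM. Of 30 apoptosis regulators 12 fell and 7 rose (median -0.12, -0.06 without control replicate 3), and 7 of the 29 at 1 TPM or more in the controls rose. The falls included both BIRC3, an inhibitor of apoptosis, from 100.3 ± 3.36 to 40.2 ± 3.85 TPM, and HRK, a BH3-only activator of it, from 11.2 ± 0.594 to 4.11 ± 0.520 TPM. Targets of p53 moved in both directions, with 10 of 23 higher and 9 lower (median -0.02, -0.08 to 0.03 over the alternatives), and the largest rise among them was that of TP53INP1, from 3.46 ± 0.0771 to 15.9 ± 0.452 TPM (1.92 ± 0.08).

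Other genes among the 15 largest falls follow. SLCO4A1, an organic anion transporter, was at 20.7, 20.7 and 23.1 TPM in controls and 1.26, 1.95 and 2.25 TPM after TGFb3 (-3.01 ± 0.13), and SLC27A2, a fatty acid transporter, at 13.8, 15.8 and 16.7 TPM and 0.974, 1.27 and 1.18 TPM (-2.94 ± 0.10). CD14, a lipopolysaccharide co-receptor, was at 20.4, 18.1 and 21.4 TPM and 3.26, 1.99 and 2.41 TPM (-2.57 ± 0.13). CD14 is also a leukocyte marker. The summed leukocyte markers were at 20.9 to 24.9 TPM in controls, most of it CD14, and at 20.0 to 23.7 TPM after TGFb3. Of these markers CSF1R rose from 0.702 ± 0.185 to 8.05 ± 0.927 TPM and CD68 by 2.00 ± 0.32, while PTPRC and CD3E were at 0 in all samples. The similar sums thus hold changes in opposite directions, and the part of other cells in them was not tested. HYPK fell from 115, 127 and 115 TPM to 19.1, 9.35 and 24.9 TPM, but it overlaps SERF2, which was at 150.1, 155 and 129 TPM in controls and spread from 135 to 275 TPM after TGFb3 and was not called, except without TGFb3 replicate 3 (0.60, limma adjusted p = 0.012), and how reads were split between these overlapping genes is not given in the sources used here.

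Among long non-coding RNAs LINC01629 was listed at 0 TPM in every control and at 13.4, 16.1 and 10.6 TPM after TGFb3, and NKILA was at 0.528, 0.467 and 0.846 TPM and 17.8, 17.0 and 15.3 TPM. LINC02001 fell from 18.1 ± 0.917 to 4.89 ± 0.452 TPM, ADIRF-AS1 from 8.79 ± 0.936 to 2.02 ± 0.539 TPM and SFTA1P from 8.73 ± 2.88 to 1.61 ± 1.41 TPM.

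The direct contrast of TGFb3 with high calcium in the same fit sets these values against the other treatment without the controls. Of all tested genes 2256 (16.2%) were higher and 7038 (50.4%) lower after TGFb3 than after high calcium, and the mitochondrially encoded share, 11.1 to 11.9% in high calcium against 22.2 to 23.3% after TGFb3, moved with this split, in which its part was not tested. FN1 was at 47.9 ± 1.38 TPM in high calcium, so that TGFb3 was higher by 6.75 ± 0.06 on the log2 scale, and TGFBI was higher by 4.26 ± 0.05. LAMA3, at 710.2 ± 23.0 TPM in high calcium, differed by 1.42 ± 0.04. TNC, at 32.1 ± 3.31 TPM in high calcium, was not called different (0.17 ± 0.14, limma adjusted p = 0.31), nor did CDKN1A, at 105 ± 3.14 TPM (-0.07 ± 0.07, limma adjusted p = 0.37), or NDRG1, a stress-response gene at 167 ± 5.94 TPM (-0.04 ± 0.06, limma adjusted p = 0.58). PDK4, FTH1 and LCN2 were far apart: PDK4 was at 160.2 ± 2.79 TPM in high calcium, FTH1 (ferritin heavy chain) at 10184 ± 221 against 2408 ± 225 TPM after TGFb3, and LCN2 (lipocalin 2) at 133 ± 6.73 against 2.63 ± 0.390 TPM. ESRP1, at 0.744 ± 0.305 TPM after TGFb3, was at 21.0 ± 3.58 TPM in high calcium (-3.66 ± 0.19). MKI67 was lower in high calcium, at 50.1 ± 1.91 TPM, than after TGFb3 (0.86 ± 0.04).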

How the data were processed

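RNA-seq of 9 MCF10A samples was deposited by the authors as 1 table of TPM values for 58288 annotated genes. Per the submitters' processing notes, HISAT2 and hg38 were used; which quantifier, annotation release and strand setting were used is not given in the sources used here. Because TPM adds up to the same total in each sample, abundant RNAs that change move the rest. Entries sharing a symbol were summed, and coordinates came from GENCODE 29 (56352 symbols matched by identifier). Those averaging at least 1 TPM over the samples were fitted as log2(TPM + 1), a scale that understates changes of low genes, with limma 3.58.1 in R 4.3.3 (trend, 3 groups, 6 residual degrees of freedom, two-sided p, Benjamini-Hochberg threshold 0.05). The fit was checked on simulated data with independent noise, in which only a small part of the genes was changed. That check hence does not give the rate of false calls in these data, where 59.6% of genes were called. An exact permutation test of 3 against 3 samples cannot go below p = 0.1. The members and the 60 gene lists were chosen with earlier results of these data known. Genes named are the 15 largest rises and falls without overlap of samples (mean of 10 TPM or more in the higher group), the 8 nuclear genes with the largest rise and fall in TPM, the 4 largest called differences of each list, 5 long non-coding RNAs each way (at least 3 TPM) and a set of pathway genes, from which the text gives a selection; some are not reported here. Alternatives were pseudocounts of 0.1 and 5 TPM, other filters and scalings, the fit of the 2 compared groups alone, a replicate block and leaving out each library. Windows before start sites were taken from RefSeq (GRCh38.p14). Python 3.11.15 was used for lists and figures.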

Additional observations from a re-analysis of the deposited data

How the results depend on the processing

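Over 18 alternatives the called genes numbered 3021 to 4079 higher and 4092 to 4668 lower; 10478 genes were tested with a mean of at least 5 TPM and 26932 without a filter. The counts of large differences and the medians of lists with low genes followed the pseudocount. With 0.1 TPM 1120 rises and 865 falls reached 1, and with 5 TPM 458 rises and 205 falls did. Leaving out 1 library at a time gave 3362 to 3750 rises and 4211 to 4539 falls, with 847 to 927 and 541 to 604 of at least 1. Median ratio scaling gave 4079 rises and 4234 falls, with the all-gene median within 0.06 of its main value. The replicate block gave 3589 rises and 4455 falls. Same-numbered control and TGFb3 samples did not deviate together over all genes (correlations -0.075, -0.051 and -0.066), and no sample correlated best with its own number. Such correlations could miss a small shared effect, and no label says whether the numbers mark a shared culture or day. Of 174 named genes 165 kept their direction and call under all 18 alternatives. CTSD, CTSL, HIST2H2AC and ID2 lost their calls under some and KRT5, MIR222HG and SERF2 gained one. ESRP1 and ACTA2, which were not called, changed sign: ESRP1 was at -0.03 without control replicate 3 and -0.07 without TGFb3 replicate 2 (up to 0.23 without control replicate 1), and ACTA2 at -0.0052 under quantile normalisation, -0.00096 without control replicate 2 and -0.030 without TGFb3 replicate 3 (up to 0.090 without TGFb3 replicate 1). The cause of these changes was not tested. The S phase, G2/M and ribosome biogenesis lists had 48, 47 and 30 falls under every alternative, whereas matrix glycoproteins had 14 to 20 rises and collagens 7 to 13, fewest where low genes were filtered out. Depth is unknown, so the precision of values near 1 TPM is too.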

Other observations

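Gene families gathered by the start of their symbols, a grouping chosen after the values were seen, moved as follows against 26.5% higher and 33.1% lower of all tested genes. Of 78 mitochondrial ribosomal protein genes (MRPL and MRPS) 72 fell and 0 rose, with a median of -0.56, and MRPL12 fell from 124 ± 9.86 to 56.2 ± 2.50 TPM. All 21 tested genes whose symbols start with NUP followed by a number, most of them nucleoporins of the nuclear pore, fell, with a median of -0.56. Of 24 genes with TIMM or TOMM symbols, which are named for mitochondrial protein import, 18 fell and 0 rose, with a median of -0.59. Subunits of the RNA polymerases (POLR) fell in 23 of 30 cases and rose in 0. Among the KDM histone demethylases 9 of 16 rose and 1 fell.

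Host genes of microRNAs, also gathered after their values were seen, rose in 9 of 20 cases and fell in 4. Members under 1 TPM in the controls, such as MIR503HG, could pass the filter only through a treated group. They were not counted apart here, so the 9 rises cannot be set against the 26.5% of all tested genes. MIR503HG was at 0.194, 0.202 and 0.194 TPM in controls and 8.36, 6.27 and 5.40 TPM after TGFb3 (2.66 ± 0.18), and MIR22HG at 11.5, 9.68 and 12.0 TPM and 63.5, 63.9 and 64.1 TPM (2.43 ± 0.17). MIR31HG rose by 1.52 ± 0.19. MIR222HG was at 0.0493, 0.142 and 8.63 TPM in controls and 11.4, 12.5 and 10.9 TPM after TGFb3 and was not called (limma adjusted p = 0.058), with control replicate 3 near the treated samples and far from the other controls; without that control it was called (3.52, limma adjusted p = 0.0091), as it was under 5 other alternatives (adjusted p from 0.015 to 0.049).

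Of the remaining gene lists, semaphorins, ephrins and netrins rose in 11 of 20 cases and fell in 3 (9 of the 18 at 1 TPM or more in the controls rose), with SEMA3C, a secreted guidance factor, going from 32.5 ± 0.683 to 107 ± 6.47 TPM. WNT genes rose in 9 of 23 cases and fell in 7 (8 of the 22 at 1 TPM or more in the controls rose), and DKK1, a secreted WNT antagonist, rose from 65.6, 65.9 and 78.7 TPM to 258, 244 and 269.5 TPM (1.87 ± 0.08). Of 12 Notch genes 2 rose, 3 fell and 7 were not called, and 1 of the 11 at 1 TPM or more in the controls rose. The ligand JAG1 rose from 41.3 ± 2.19 to 85.1 ± 1.73 TPM.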
